A study of Ovis aries with 22 samples.

Results

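Large proteoglycans and the genes of hyaluronan were followed in RNA-seq libraries of arterial sinus tissue from sheep (Ovis aries). The set held 9 genes chosen by name, and 8 of them had a row among the 26200 gene symbols of the count tables: VCAN, ACAN, HAPLN1, HAPLN3, HAS1, HAS3, CD44 and PRG4. All 8 passed the filter on low counts, which left 14979 genes. The hyaluronan synthase gene HAS2 was not analysed here. The autograft sinus group came from 3 sheep, sampled 6 months after a Ross procedure, the operation that moves the animal's own pulmonary root to the aortic position. Native aortic sinus and native pulmonary sinus came from the same 4 animals, named D3 to D6, so that replicates 1 to 4 of the native groups are these animals in order. These animals were non-operated per the design text, but the labels give aortic replicate 1 (animal D3) the treatment Ross surgery. The labels do not name a wall layer, strain, age or sex. Each native sinus answers a separate question about the autograft, since it began as pulmonary sinus and now occupies the site of an aortic sinus. There was no autograft tissue from before surgery, so the operation, the new position and the animal cannot be told apart in either comparison.

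Hyaluronan is a long sugar chain without sulfate that hyaluronan synthases spin out through the cell membrane from UDP-sugars. Versican and aggrecan are core proteins that carry many chondroitin sulfate chains and attach to hyaluronan at one end, where a link protein locks the bond. These aggregates bind water, and in arteries versican is the main large proteoglycan, while aggrecan is best known from cartilage. CD44 is the chief cell surface receptor of hyaluronan. PRG4, known as lubricin, is a mucin-like glycoprotein that lubricates joint and other moving surfaces and is not a member of the hyaluronan-binding lectican family.

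Library totals lay between 17380599 and 20741334 counts. The first principal component held 37.9% of the variance, with the autograft libraries at 63.1, 72.8 and 37.2, the aortic ones between -30.6 and 8.46 and pulmonary replicates 2 to 4 between -67.6 and -29.5. Pulmonary replicate 1 stood beside the aortic libraries at 9.34, and autograft replicate 1 stood apart on the second component at 64.1. The 7 smooth muscle markers found had counts in every library and summed to 25724 to 51447 CPM in the autograft, 51854 to 73786 CPM in aortic sinus and 54337 to 89300 CPM in pulmonary sinus. CPM is the count scaled to library size, with TMM factors. The 8 fibroblast and adventitial markers summed to 9607 to 13515 CPM in the autograft, 4955 to 6674 CPM in aortic sinus and 2503 to 8040 CPM in pulmonary sinus. At an edgeR adjusted p under 0.05, 2 of the 7 smooth muscle markers fell against pulmonary sinus and 0 against aortic sinus. Of the 8 fibroblast markers 3 rose against pulmonary sinus and 2 against aortic sinus. Over all genes 6.05% rose and 5.29% fell against pulmonary sinus, and 0.948% rose and 1.43% fell against aortic sinus. In RNA from tissue of mixed cell types, fewer cells of a type and less RNA per cell cannot be told apart. The part of these differences between marker sums in the results that follow was not tested.

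Set side by side per transcript length, VCAN and CD44 were the most abundant genes of the set. In the deposited FPKM (fragments scaled to transcript length and library size), VCAN averaged 65.9 over the 11 libraries, with a range of 45.4 to 98.6, and CD44 averaged 65.7, with a range of 40.4 to 109. Their levels overlapped. PRG4 came next at 16.6 FPKM, but its range of 0.671 to 71.5 FPKM overlapped that of every other gene of the set except HAS3. The cartilage-type link protein gene HAPLN1 averaged 4.52 FPKM (3.08 to 6.43) and HAPLN3 averaged 2.26 FPKM (1.77 to 2.78), without overlap. At the low end were HAS1 at 0.998 FPKM (0.375 to 1.80), ACAN at 0.586 FPKM (0.154 to 1.53) and HAS3 at 0.281 FPKM (0.123 to 0.503), whose ranges overlapped one with the next. Among all genes of the FPKM tables, VCAN and CD44 both stood at percentile 92.6, PRG4 at 73.1, HAPLN1 at 44.1, ACAN at 13.1 and HAS3 at 6.72. The ratio of ACAN to VCAN in FPKM had a median of 0.0104 in the autograft, 0.00842 in aortic sinus and 0.00497 in pulmonary sinus. The ratio of HAPLN1 to VCAN had a median of 0.0738 in the autograft, 0.0587 in aortic sinus and 0.0691 in pulmonary sinus. In these ratios the groups overlapped.

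None of the 8 genes passed the test against pulmonary sinus or against aortic sinus with all libraries in the fit. The autograft's versican level was the lowest of the 3 group means and its PRG4 and aggrecan means were the highest, but the libraries of the groups overlapped for each of the 8 genes. Against pulmonary sinus, 0 of 8 were called with edgeR's quasi-likelihood test at a Benjamini-Hochberg adjusted p under 0.05 over all genes, where 11.3% of all 14979 genes were called. DESeq2, which called 18.1% of all genes, and limma-voom, which called 10.9%, also called 0 of 8. Of the 8 genes 1, PRG4, had an unadjusted p under 0.05, against 30.6% of all genes. Groups without overlap were found for 0 of 8 genes and for 22.1% of all genes. Against aortic sinus, 0 of 8 were called where 2.38% of all genes were, again with 0 of 8 in DESeq2 (9.18% of all genes) and limma-voom (2.56% of all genes). There, 0 of 8 had an unadjusted p under 0.05, against 23% of all genes, and 0 of 8 had groups without overlap, against 20.6% of all genes. The median log2 fold change of the 8 genes was 0.11 against pulmonary sinus and -0.03 against aortic sinus, beside 0.00 over all genes in each comparison. Both comparisons use the same 3 autograft libraries.

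**Figure D1:**
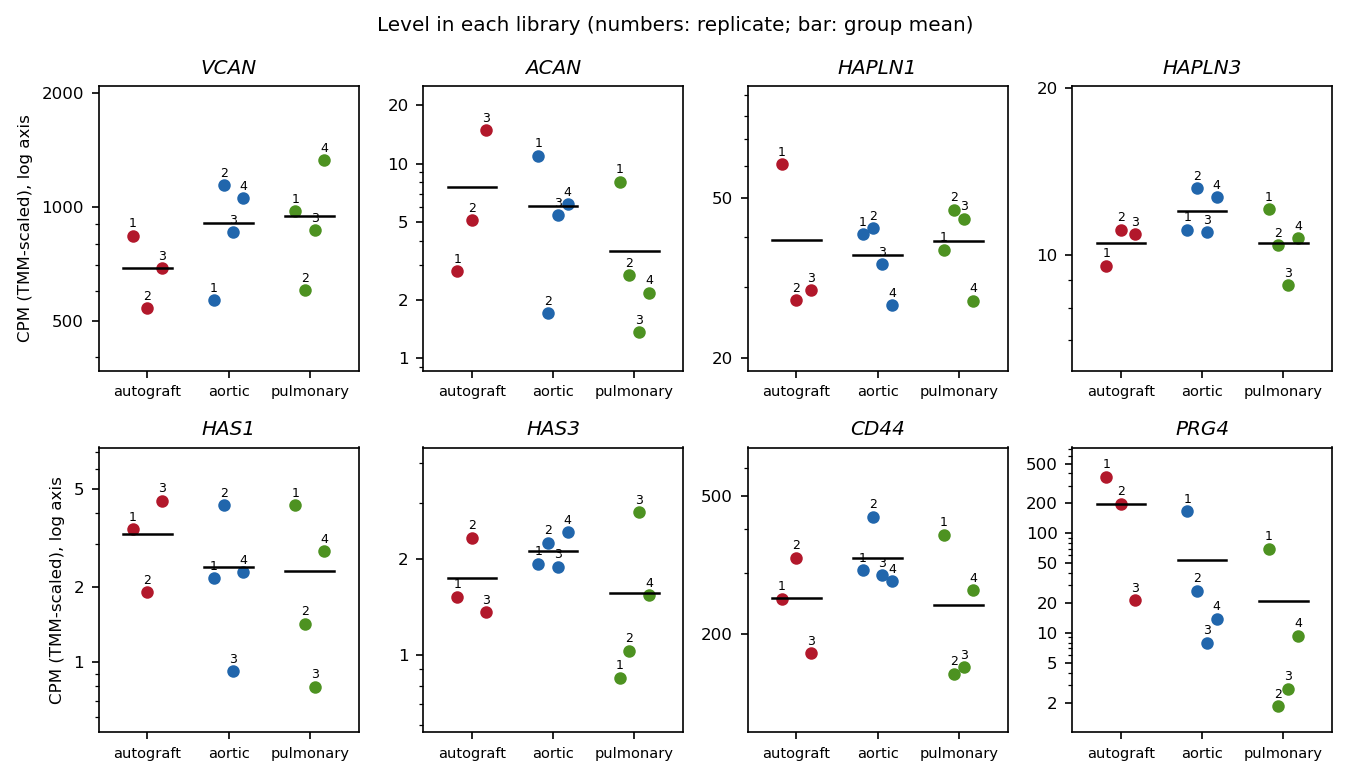
Level of each of the 8 genes in every library, in CPM on a log axis, for autograft sinus (red, 3 libraries), aortic sinus (blue, 4) and pulmonary sinus (green, 4). Numbers give the replicate and bars the group mean. The groups overlap in every panel, and the PRG4 panel spans the widest range, with pulmonary replicate 1 at 70.1 CPM and the other pulmonary libraries between 1.83 and 9.37 CPM.

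VCAN, the gene of versican, had 840, 539 and 690 CPM in autograft replicates 1, 2 and 3. It had 567, 1143, 858 and 1056 CPM in aortic replicates 1 to 4 and 975, 603, 868 and 1333 CPM in pulmonary replicates 1 to 4. The group means were 690 ± 151 CPM in the autograft (SD, n = 3), 906 ± 255 CPM in aortic sinus (SD, n = 4) and 945 ± 302 CPM in pulmonary sinus (SD, n = 4). Each autograft library lay within the range of both native groups except autograft replicate 2, which was the lowest of all 11 libraries. The fitted log2 fold change of the autograft was -0.45 ± 0.29 (SE) against pulmonary sinus, with a 95% interval of -1.09 to 0.18 and an adjusted p = 0.316. Against aortic sinus it was -0.39 ± 0.29, with an interval of -1.03 to 0.24 and an adjusted p = 0.442. As a fold, the first interval ran from 0.470 to 1.14 times the pulmonary level.

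ACAN, the gene of aggrecan, was counted at 2.81, 5.12 and 14.8 CPM in the 3 autograft libraries, at 11, 1.70, 5.45 and 6.17 CPM in the aortic ones and at 8.07, 2.68, 1.36 and 2.17 CPM in the pulmonary ones. Autograft replicate 3, aortic replicate 1 and pulmonary replicate 1 were the highest of their groups, and the ranges overlapped. Its log2 fold change was 1.08 ± 0.73 against pulmonary sinus (adjusted p = 0.343) and 0.32 ± 0.73 against aortic sinus (adjusted p = 0.83). The value against pulmonary sinus had an interval of -0.52 to 2.69. With single libraries left out it lay between 0.15, without autograft replicate 3, and 1.85, without pulmonary replicate 1. Against aortic sinus it lay between -0.62, without autograft replicate 3, and 0.77, without aortic replicate 1, and so changed sign. Of the 9 cartilage cell markers found besides the genes of the set, the sum was 41.8 to 61.6 CPM in the autograft, 19.3 to 55.7 CPM in aortic sinus and 16.3 to 38.5 CPM in pulmonary sinus. Most of this sum came from SOX9, CHAD and COL11A2. CHAD had 34.3, 15.6 and 14.2 CPM in the autograft, 1.55 to 35.8 in aortic and 2.34 to 5.31 CPM in pulmonary sinus. Aortic replicate 1 led its group in CHAD and ACAN, but in the autograft their orders were reversed. SOX9 had 21.2, 12.2 and 35.2 CPM in the autograft, 5.45 to 19.8 in aortic and 8.27 to 20.7 CPM in pulmonary sinus. Autograft replicate 3 was highest in SOX9 and ACAN, but aortic replicate 2 led its group in SOX9 and was its lowest in ACAN. The COL11A2 ranges overlapped. The type II collagen gene COL2A1, which defines cartilage, reached at most 1.35 CPM, in aortic replicate 2. The cartilage matrilin gene MATN1 had a count of 0 in all 8 native libraries and at most 0.114 CPM in the autograft. The part of such cells in the ACAN values was not tested.

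The fitted log2 fold changes of the link protein genes lay between -0.19 and 0.13. HAPLN1 had 60.7, 27.9 and 29.5 CPM in the autograft, 40.6, 42, 34.2 and 27.1 CPM in aortic sinus and 37.2, 46.7, 44.4 and 27.8 CPM in pulmonary sinus. Autograft replicate 1 was the highest of all libraries, while the other autograft libraries lay near the lowest native ones. Its log2 fold change was 0.01 ± 0.28 against pulmonary sinus, with an interval of -0.60 to 0.63, and 0.13 ± 0.28 against aortic sinus, with an interval of -0.48 to 0.74. Without autograft replicate 1 these values were -0.45 and -0.32, both uncalled. HAPLN3, a link protein gene expressed more widely than HAPLN1, had 9.55, 11.1 and 10.9 CPM in the autograft. It had 11.1, 13.2, 11 and 12.7 CPM in aortic sinus and 12.1, 10.4, 8.80 and 10.7 CPM in pulmonary sinus. The highest HAPLN3 library stood only 1.5-fold above the lowest. The interval of its log2 fold change was -0.34 to 0.34 against pulmonary sinus and -0.53 to 0.15 against aortic sinus, the narrowest of the set in each comparison. In the RefSeq annotation of the sheep (ARS-UI_Ramb_v3.0), HAPLN1 is the protein-coding neighbour of VCAN and HAPLN3 that of ACAN.

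Hyaluronan synthases were counted at low levels. HAS1 had 3.43, 1.92 and 4.48 CPM in the autograft, 2.18, 4.30, 0.918 and 2.31 CPM in aortic sinus and 4.29, 1.43, 0.796 and 2.80 CPM in pulmonary sinus. HAS3 had 1.52, 2.33 and 1.36 CPM in the autograft, 1.93, 2.25, 1.89 and 2.42 CPM in aortic sinus and 0.847, 1.03, 2.81 and 1.54 CPM in pulmonary sinus. Both sets of ranges overlapped. These levels rest on 16 to 86 counts a library for HAS1 and 15 to 60 for HAS3. The log2 fold change of HAS1 was 0.50 ± 0.60 against pulmonary sinus (interval -0.81 to 1.81) and 0.43 ± 0.60 against aortic sinus (interval -0.88 to 1.74). That of HAS3 was 0.15 ± 0.42 against pulmonary sinus (interval -0.77 to 1.07) and -0.29 ± 0.42 against aortic sinus (interval -1.21 to 0.63). In the same annotation HAS3 overlaps another protein-coding gene, LOC121816498, and no source used here states whether counting used the strand, so its counts may include reads of that gene.

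CD44, the hyaluronan receptor, had 253, 332 and 176 CPM in the autograft, 306, 435, 295 and 284 CPM in aortic sinus and 386, 154, 161 and 268 CPM in pulmonary sinus. Aortic replicate 2 was the highest library, and pulmonary replicates 2 and 3 were the lowest. The means were 254 ± 78.1 CPM in the autograft (SD, n = 3), 330 ± 70.6 CPM in aortic sinus (SD, n = 4) and 242 ± 109 CPM in pulmonary sinus (SD, n = 4). Its log2 fold change was 0.07 ± 0.32 against pulmonary sinus (adjusted p = 0.91) and -0.38 ± 0.33 against aortic sinus (adjusted p = 0.517), with intervals of -0.64 to 0.78 and -1.09 to 0.34.

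**Figure D2:**
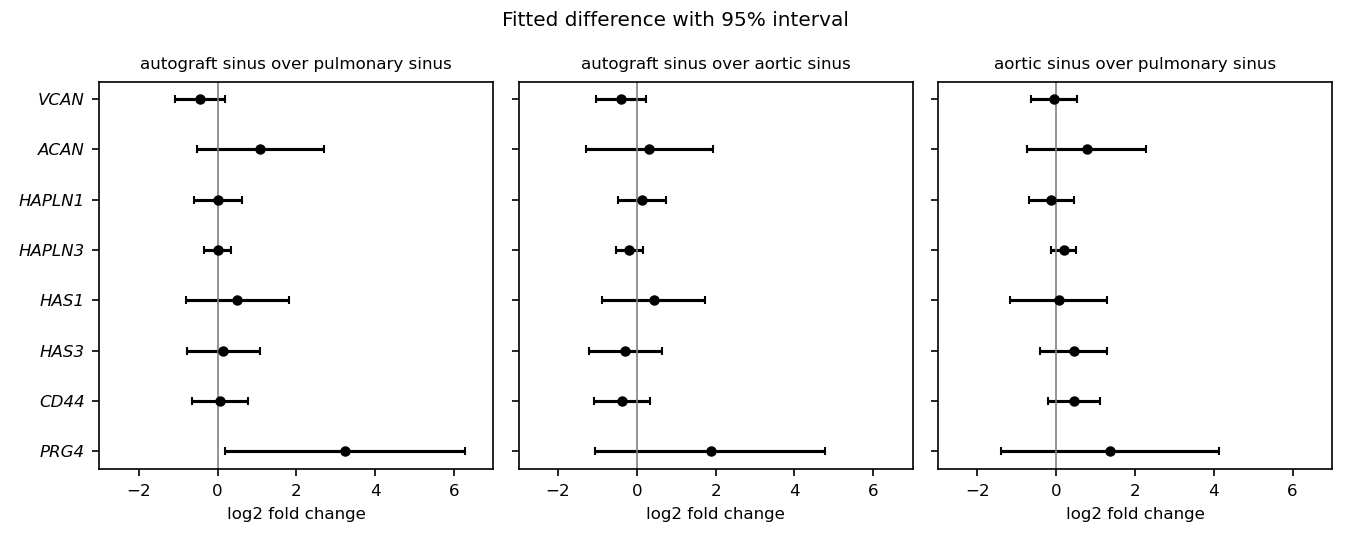
Fitted log2 fold change of each gene (points) with its 95% interval (bars) in the 3 comparisons, from edgeR. The intervals of 7 genes cross 0 in every comparison, and that of PRG4 lies above 0 against pulmonary sinus (0.19 to 6.27) and crosses 0 in the other comparisons.

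PRG4 had by far the widest spread. It had 371, 198 and 21.3 CPM in autograft replicates 1, 2 and 3, 167, 26.5, 7.97 and 13.9 CPM in aortic replicates 1 to 4 and 70.1, 1.83, 2.76 and 9.37 CPM in pulmonary replicates 1 to 4. The highest library stood 203-fold above the lowest. All autograft libraries lay above pulmonary replicates 2 to 4, but autograft replicate 3 lay below pulmonary replicate 1. The log2 fold change was 3.23 ± 1.39 against pulmonary sinus, with an interval of 0.19 to 6.27, an unadjusted p = 0.0393 and an adjusted p = 0.142 in edgeR. Against aortic sinus it was 1.87 ± 1.33, with an interval of -1.05 to 4.78 and an adjusted p = 0.427.

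The call on PRG4 depended on animal D3, whose aortic and pulmonary libraries were the highest of their groups. Without pulmonary replicate 1 the log2 fold change against pulmonary sinus was 5.39 ± 1.42 (adjusted p = 0.0277), and without both libraries of D3 it was 5.41 ± 1.06 (adjusted p = 0.0147). Those were the fits, of 26 alternatives, in which the gene passed, and its log2 fold change stayed between 2.39 and 5.41 in all of them. Without both pulmonary replicate 1 and autograft replicate 1 it was 4.54 with an adjusted p = 0.0579. Against aortic sinus it was 3.61 without aortic replicate 1 (adjusted p = 0.212) and 3.6 without D3 (adjusted p = 0.0987), but 1.04 without autograft replicate 1 (adjusted p = 0.734) and 1.02 without both autograft replicate 1 and pulmonary replicate 1 (adjusted p = 0.653). The labels give the aortic library of D3, but not its pulmonary library, the treatment Ross surgery.

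**Figure D3:**
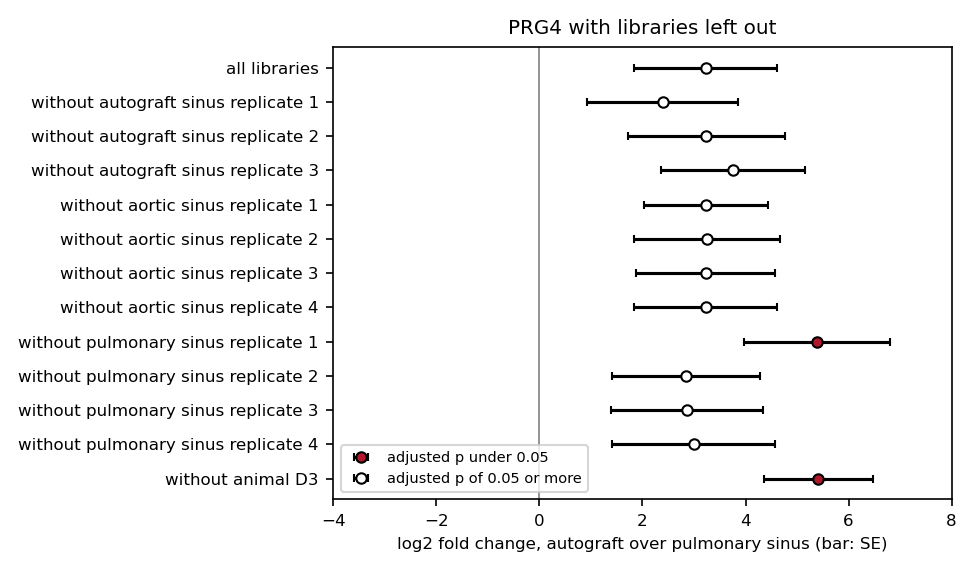
Log2 fold change of PRG4 in the autograft over pulmonary sinus (points) with its SE (bars), with all libraries and with single libraries or animal D3 left out. Filled points passed at an adjusted p under 0.05, which happened without pulmonary replicate 1 (5.39) and without animal D3 (5.41).

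Markers of other cell types were uneven between the same libraries. The fibroblast and adventitial markers summed to 8040 CPM in pulmonary replicate 1, against 2503 to 6349 CPM in the other pulmonary libraries, and all 8 had counts in every library. They summed to 12095, 9607 and 13515 CPM in autograft replicates 1, 2 and 3, where replicate 3 was the lowest in PRG4. In aortic replicates 1 to 4 they summed to 5668, 5309, 4955 and 6674 CPM, where replicate 1 was the highest in PRG4. The 7 mesothelial and epicardial markers found, which mark the lining of the outer surface, summed to 140 CPM in autograft replicate 1, against 11.5 and 8.97 CPM in the other autograft libraries. Their sum was 3.65 to 42.1 CPM in aortic sinus, with aortic replicate 1 at 10.2 CPM, and 3.0 to 8.50 CPM in pulmonary sinus. In autograft replicate 1 MSLN stood at 20.7 CPM, BNC1 at 12.4 CPM and LRRN4 at 13.1 CPM, while CALB2 had a count of 0 in 10 of the 11 libraries. In autograft replicate 2, with 198 CPM of PRG4, BNC1 and CALB2 had a count of 0. There LRRN4 stood at 0.233 CPM, KRT18 at 0.407, MSLN at 0.873, KRT8 at 3.49 and WT1 at 6.51 CPM. WT1 had 26.0 CPM in autograft replicate 1, 6.02 CPM in autograft replicate 3, 1.09 to 4.72 CPM in aortic sinus and 1.36 to 6.11 CPM in pulmonary sinus. Aortic replicate 2 had the highest native sum, with KRT8 at 34.1 CPM, KRT18 at 5.65 CPM and MSLN at 0.150 CPM. The 9 macrophage markers found summed to 196 to 1287 CPM in the autograft, 147 to 448 CPM in aortic sinus and 71.6 to 331 CPM in pulmonary sinus, and autograft replicate 3 was the lowest autograft library. The part of these cells in the PRG4 values was not tested. PRG4 overlaps the gene TPR in the RefSeq annotation, and TPR ranged from 85.9 to 117 CPM over all 11 libraries. The part of reads from TPR in the PRG4 values was not tested.

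The native sinuses were set against each other within the same animals. Between aortic and pulmonary sinus 0 of 8 genes were called, and so were 0% of all genes in edgeR, 0 in DESeq2 and 0 in limma-voom. With an unadjusted p under 0.05 there were 0 of 8, against 2.04% of all genes, and 0 of 8 had groups without overlap, against 1.41% of all genes. PRG4 was higher in the aortic than in the pulmonary library in 4 of 4 animals, by 1.26, 3.78, 1.49 and 0.56 on the log2 CPM scale in D3, D4, D5 and D6. Its fitted log2 fold change was 1.36 ± 1.26, and in an edgeR fit of the native groups alone with animal as a fixed block it was 1.67, with an unadjusted p = 0.0143 and an adjusted p = 1. With animal as a random block in limma-voom it was 1.87 with an adjusted p = 1. In the fit of all 3 groups without a block it was -0.37 without aortic replicate 1 and 3.52 without pulmonary replicate 1, both uncalled. Each of these fits leaves a library of D3 without its pair. Without both libraries of D3 the log2 fold change in that fit was 1.81 ± 0.95 (adjusted p = 0.737). HAPLN3 was higher in the aortic library in 3 of 4 animals, with a fitted 0.19 ± 0.14, and so were ACAN, with 0.77 ± 0.69, HAS3, with 0.44 ± 0.39, and CD44, with 0.45 ± 0.30. VCAN was higher in aortic sinus in 1 of 4 animals and differed by -0.06 ± 0.27, with an interval of -0.64 to 0.52. HAPLN1 (-0.12 ± 0.26) was higher in 1 of 4 and HAS1 (0.07 ± 0.56) in 2 of 4.

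**Figure D4:**
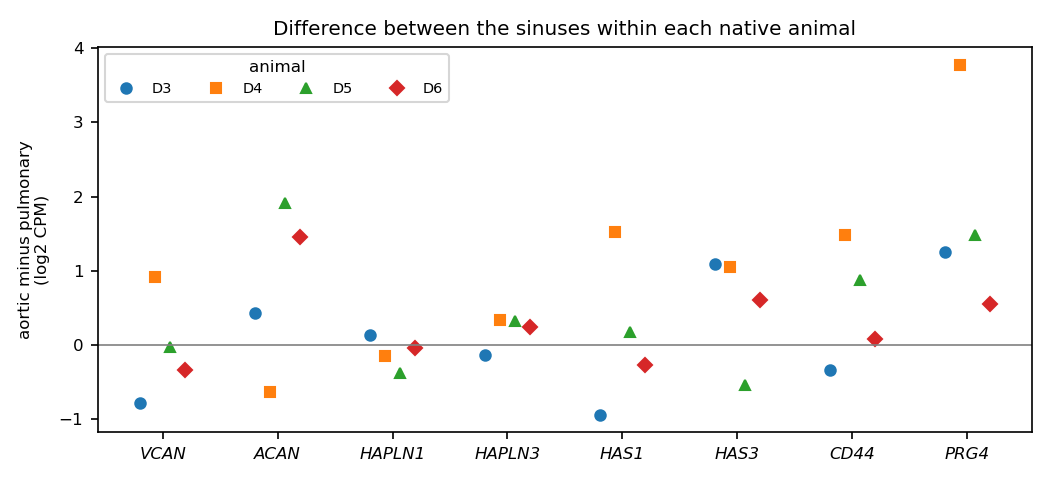
Difference in log2 CPM between the aortic and the pulmonary library of each animal that gave both native sinuses (D3 to D6, by colour and shape) for the 8 genes. PRG4 lies above 0 in all 4 animals (0.56 to 3.78), and the other genes have animals on both sides of 0.

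The spread between animals of the same group differed from gene to gene. The within-group SD on the log2 CPM scale was 2.13 for PRG4, 1.10 for ACAN, 0.87 for HAS1, 0.49 for HAS3, 0.48 for CD44, 0.43 for VCAN, 0.41 for HAPLN1 and 0.15 for HAPLN3, against a median of 0.30 over all genes. Among the genes nearest in level, PRG4 stood at percentile 99.8 of this spread, ACAN at 94.4 and CD44 at 91.0, while HAPLN3 stood at 6.19. Likeness of pattern over the 11 libraries was described by Pearson's r of log2 CPM, for genes picked by a rule extended to uncalled members after their values were seen. The genes most like VCAN were the hyaluronan receptor gene HMMR (r = 0.95), PHF3 (r = 0.94) and ADCY3 (r = 0.92). HMMR ranged from 3.8 to 8.74 CPM. Those most like PRG4 were DNM1 and LTC4S (both r = 0.98), and the one most like CD44 was VIT (r = 0.92). These points share libraries and groups.

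The genes that break down, bind and decorate these molecules were described from 8 lists, of which 87 genes were tested. Against pulmonary sinus 12 rose (13.8%, against 6.05% of all genes) and 1 fell (1.15%, against 5.29% of all genes), and their median log2 fold change was 0.35, beside 0.00 over all genes. Against aortic sinus 1 rose and 1 fell (2.3% together, against 2.38% of all genes), with a median of 0.18. Between the native sinuses 0 of 87 were called in edgeR, DESeq2 and limma-voom, and 5 had an unadjusted p under 0.05, against 2.04% of all genes. Of the 13 calls against pulmonary sinus, 2 held whichever single library was left out. Leaving out autograft replicate 2 ended 10 of them, and leaving out pulmonary replicate 3 ended 11.

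**Figure D5:**
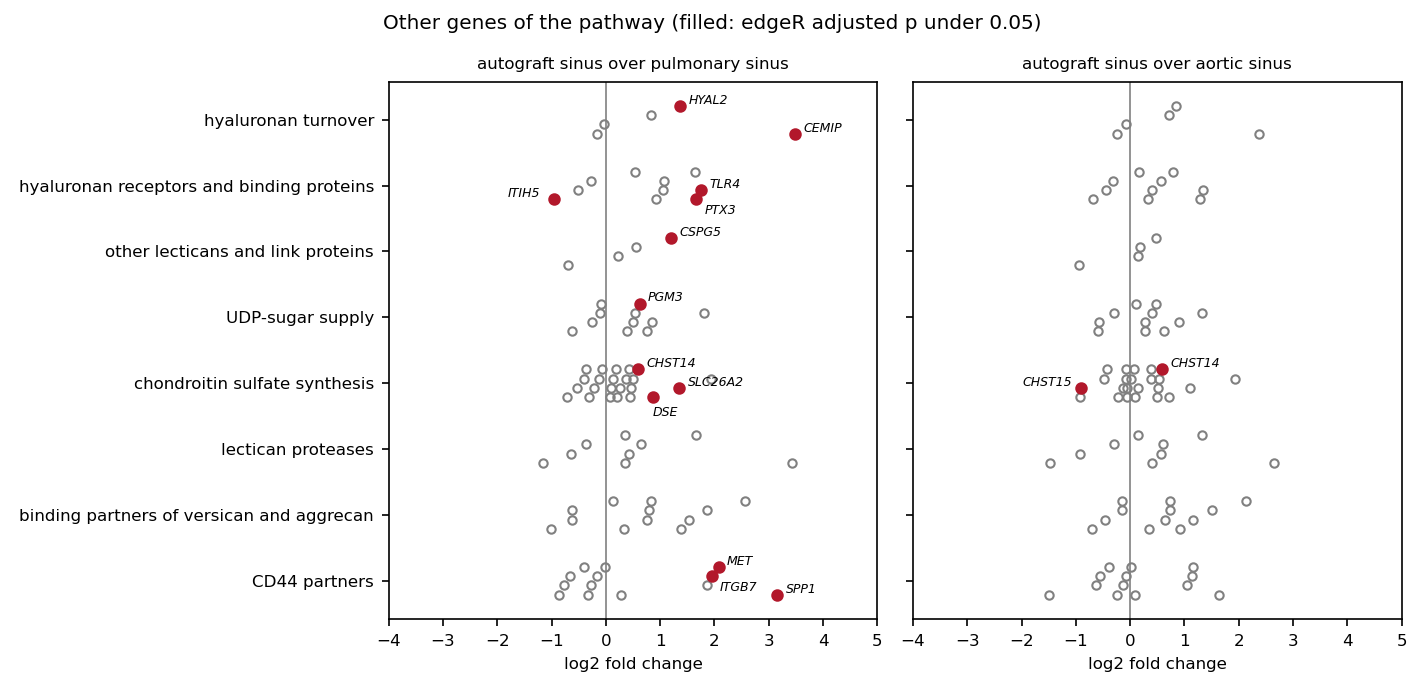
Log2 fold change of the 87 tested genes of the 8 lists, autograft over pulmonary sinus (left) and autograft over aortic sinus (right), 1 point a gene. Filled, named points passed at an edgeR adjusted p under 0.05, 13 against pulmonary sinus and 2 against aortic sinus.

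Of 5 tested genes of hyaluronan turnover, 2 rose against pulmonary sinus and 0 fell, where 6.05% of all genes rose and 5.29% fell. The list median was 0.83. CEMIP, a protein that starts the breakdown of hyaluronan, had 6.69, 4.01 and 1.25 CPM in the autograft, 0.507, 0.600, 1.03 and 0.913 CPM in aortic sinus and 0.734, 0.285, 0.375 and 0 CPM in pulmonary sinus. The count of 0 in pulmonary replicate 4 allows up to 0.169 CPM, counting error only. For CEMIP all autograft libraries were above all native ones, the nearest being 22 counts in autograft replicate 3 and 18 in aortic replicate 3. Groups without overlap were found for 22.1% of all genes against pulmonary sinus and 20.6% against aortic sinus. The log2 fold change of CEMIP against pulmonary sinus was 3.49 ± 0.79 (adjusted p = 0.0222). Against aortic sinus 0 of the 5 genes were called in edgeR and limma-voom (2.38% and 2.56% of all genes), and CEMIP was called in DESeq2 (9.18% of all genes). HYAL2, a hyaluronidase held at the cell surface, had 15.5, 56.0 and 26.2 CPM in the autograft. It had 17.3, 24.6, 13.9 and 16.7 CPM in aortic sinus and 17.0, 12.6, 10.7 and 10.3 CPM in pulmonary sinus. It rose by 1.37 ± 0.37 against pulmonary sinus (adjusted p = 0.0391), with autograft replicate 1 inside the range of both native groups. The 7 endothelial markers found had counts in every library and summed to 129, 1557 and 895 CPM in autograft replicates 1, 2 and 3, the same order as HYAL2. Their sum was 227 to 570 CPM in aortic sinus and 114 to 391 CPM in pulmonary sinus, 2 of them rose against pulmonary sinus, and their part in the HYAL2 result was not tested. HYAL1, the lysosomal hyaluronidase, stood at 120 ± 27.4 CPM in the autograft (SD, n = 3) and 122 ± 11 CPM in pulmonary sinus (SD, n = 4), a log2 difference of -0.03 ± 0.14. The call of CEMIP ended without autograft replicate 1 or 2 or pulmonary replicate 2 or 3 (adjusted p between 0.0581 and 0.064). That of HYAL2 ended without autograft replicate 2, aortic replicate 1, 3 or 4 or pulmonary replicate 2, 3 or 4 (adjusted p between 0.0507 and 0.151), and without autograft replicate 2 its log2 fold change was 0.72. HYAL2 was also not called by limma-voom. TMEM2, of the same list, was not called in edgeR against pulmonary sinus. It was called there in DESeq2 (18.1% of all genes) and limma-voom (10.9% of all genes). TMEM2 had 33.0, 36.9 and 33.5 CPM in the autograft, 16.2 to 30.1 CPM in aortic sinus and 14.5 to 28.7 CPM in pulmonary sinus.

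Among 10 tested hyaluronan receptors and binding proteins, 2 rose and 1 fell against pulmonary sinus, where 6.05% of all genes rose and 5.29% fell. The list median was 0.98. TLR4, the endotoxin receptor that fragments of hyaluronan also engage, had 49.5, 36.6 and 27.0 CPM in the autograft against 20.4, 5.88, 7.54 and 10.8 CPM in pulmonary sinus, and rose by 1.76 ± 0.37 (adjusted p = 0.0184). PTX3, a pentraxin that helps to crosslink hyaluronan, had 8.15, 24.6 and 37.9 CPM in the autograft against 8.75, 5.19, 9.46 and 6.40 CPM in pulmonary sinus. It rose by 1.66 ± 0.41 (adjusted p = 0.0292), although autograft replicate 1 lay within the pulmonary range. ITIH5, of the family whose heavy chains are attached to hyaluronan, had 235, 173 and 208 CPM in the autograft against 398, 421, 326 and 452 CPM in pulmonary sinus, and fell by 0.96 on the log2 scale (SE 0.24, adjusted p = 0.0315). In aortic sinus TLR4 had 11.8 to 18.8 CPM, PTX3 7.15 to 11.2 CPM and ITIH5 217 to 487 CPM, and 0 of the 10 genes were called against it in edgeR and limma-voom and 2 in DESeq2, with 3 at an unadjusted p under 0.05 in edgeR. Over all genes those shares against aortic sinus were 2.38% in edgeR, 2.56% in limma-voom and 9.18% in DESeq2, and 23% at an unadjusted p under 0.05. The call of TLR4 ended without autograft replicate 2 (adjusted p = 0.0509) or pulmonary replicate 3 (0.0537). PTX3 was also not called by limma-voom. The calls of ITIH5 and PTX3 each ended without autograft replicate 2 or 3 or pulmonary replicate 2, 3 or 4 (adjusted p between 0.0533 and 0.103).

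The lists that build chondroitin sulfate and supply its sugars had 4 calls against pulmonary sinus, all higher in the autograft. Of 23 tested genes of chondroitin sulfate synthesis, 3 rose, where 6.05% of all genes rose against pulmonary sinus. The list median was 0.19. CHST14, which sulfates dermatan sulfate, had 45.4, 41.5 and 40.4 CPM in the autograft, 25.7, 33.3, 27.7 and 27.1 CPM in aortic sinus and 29.5, 24.3, 30.0 and 29.2 CPM in pulmonary sinus. It rose by 0.59 ± 0.12 against pulmonary sinus (adjusted p = 0.0162) and by 0.58 ± 0.12 against aortic sinus (adjusted p = 0.0366). DSE, the epimerase that turns chondroitin into dermatan sulfate, rose by 0.87 ± 0.25 against pulmonary sinus (adjusted p = 0.0493). It had 128, 61.4 and 57.1 CPM in the autograft, 46.9 to 56.5 CPM in aortic sinus and 36.1 to 54.0 CPM in pulmonary sinus. SLC26A2, the sulfate transporter, rose by 1.35 ± 0.37 (adjusted p = 0.0412), with 28.2, 16.6 and 9.59 CPM in the autograft and 3.65 to 10.1 CPM in pulmonary sinus. PGM3, which works on the path to UDP-N-acetylglucosamine, was the 1 called gene of 11 for UDP-sugar supply and rose by 0.62 ± 0.14 (adjusted p = 0.0227). CHST15, which adds a further sulfate to chondroitin sulfate, had 15.5, 20.0 and 19.1 CPM in the autograft against 41, 21.7, 35.4 and 38.1 CPM in aortic sinus. It fell by 0.90 on the log2 scale against aortic sinus (SE 0.21), with an adjusted p that rounds to 0.05 and was under it before rounding.

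Most of those calls did not hold in every fit with a library left out, at log2 fold changes that mostly stayed close to those with all libraries. The call of CHST14 against pulmonary sinus held in all 11 fits with a library left out, but against aortic sinus it ended in 8 of 11, without any autograft replicate, aortic replicate 1, 3 or 4 or pulmonary replicate 3 or 4 (log2 fold change 0.53 to 0.61, adjusted p between 0.0521 and 0.108). DSE and SLC26A2 each lost the call in 9 of 11, without autograft replicate 1 or 2, any aortic replicate or pulmonary replicate 2, 3 or 4 (adjusted p between 0.0516 and 0.138). Neither gene was called by limma-voom, nor was CHST15 against aortic sinus. Without autograft replicate 1 the log2 fold change of DSE was 0.39 and that of SLC26A2 was 0.88. The call of PGM3 ended without autograft replicate 1 or pulmonary replicate 2 or 3 (log2 fold change 0.49 to 0.55, adjusted p between 0.0566 and 0.0673). CHST15 lost its call in 9 of 11, without any autograft replicate, aortic replicate 1, 3 or 4 or pulmonary replicate 2, 3 or 4 (log2 fold change -0.97 to -0.79, adjusted p between 0.0577 and 0.13).

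Of 13 tested partners of CD44, 3 rose against pulmonary sinus and 0 fell, where 6.05% of all genes rose and 5.29% fell. The list median was -0.16. ITGB7, an integrin chain of lymphocytes, had 11.5, 11.9 and 5.90 CPM in the autograft, 5.58, 3.55, 3.84 and 4.46 CPM in aortic sinus and 2.77, 2.17, 2.58 and 2.57 CPM in pulmonary sinus. It rose by 1.95 ± 0.28 (adjusted p = 0.00658), and the call held in all 11 fits with a library left out. The 8 T and natural killer cell markers found summed to 39.6 to 52.6 CPM in the autograft, 5.73 to 10.2 CPM in aortic sinus and 1.92 to 7.0 CPM in pulmonary sinus. Of these markers 7 rose against pulmonary sinus, and their part in the ITGB7 result was not tested. MET, the receptor of hepatocyte growth factor, had 18.9, 13.4 and 5.62 CPM in the autograft. It had 3.35, 6.10, 3.56 and 3.22 CPM in aortic sinus and 4.18, 1.31, 3.37 and 3.09 CPM in pulmonary sinus. It rose by 2.08 ± 0.45 against pulmonary sinus (adjusted p = 0.0195), and aortic replicate 2 lay above autograft replicate 3. SPP1, the gene of osteopontin, which can bind CD44, had 50.1, 28.1 and 24.7 CPM in the autograft. It had 13.7, 3.35, 7.06 and 38.5 CPM in aortic sinus and 8.24, 0.399, 1.08 and 5.71 CPM in pulmonary sinus. It rose by 3.16 ± 0.92 against pulmonary sinus (adjusted p = 0.0497), and aortic replicate 4 lay above autograft replicates 2 and 3. The call of MET ended without autograft replicate 1 or 2 or pulmonary replicate 3 (adjusted p between 0.0518 and 0.0556). That of SPP1 ended in 8 of 11 fits, without any autograft replicate, aortic replicate 1 or 3 or pulmonary replicate 2, 3 or 4 (adjusted p between 0.0601 and 0.12).

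In the list named for other lecticans and link proteins, the 4 tested genes were CSPG4, CSPG5, EPYC and OGN. None of these is a lectican or a link protein. Of them CSPG5 rose against pulmonary sinus, where 6.05% of all genes rose. It had 3.82, 3.49 and 3.8 CPM in the autograft, 3.96, 2.90, 1.49 and 2.36 CPM in aortic sinus and 1.98, 2.0, 1.22 and 1.26 CPM in pulmonary sinus. Aortic replicate 1 lay above every autograft library. The log2 fold change of CSPG5 against pulmonary sinus was 1.2 ± 0.35 (adjusted p = 0.0481). The call ended in 8 of 11 fits, without any autograft replicate, aortic replicate 2 or 4 or pulmonary replicate 2, 3 or 4 (adjusted p between 0.0616 and 0.124). CSPG5 is a chondroitin sulfate proteoglycan best known from the brain. NCAN, BCAN, HAPLN2 and HAPLN4, the brain lecticans and the other link proteins, did not pass the filter on low counts. Of 9 proteases and inhibitors that act on lecticans, 0 were called against pulmonary sinus in edgeR and in limma-voom and 2 in DESeq2, and 3 had an unadjusted p under 0.05 in edgeR. Of 12 binding partners of versican and aggrecan, 0 were called against pulmonary sinus in edgeR, 1 in limma-voom and 3 in DESeq2, and 6 had an unadjusted p under 0.05 in edgeR, with a median of 0.77. Over all genes the shares against pulmonary sinus were 11.3% called in edgeR, 10.9% in limma-voom and 18.1% in DESeq2, and 30.6% at an unadjusted p under 0.05. The aggrecanase genes ADAMTS4 and ADAMTS5, the 2 that DESeq2 called, were picked after their values were seen. ADAMTS4 had 1.85, 38.4 and 78.6 CPM in the autograft, 7.10, 14.1, 1.66 and 2.25 CPM in aortic sinus and 9.03, 1.77, 2.29 and 1.71 CPM in pulmonary sinus, a log2 fold change of 3.42 ± 1.06 against pulmonary sinus (adjusted p = 0.0597). Autograft replicates 2 and 3 were above every native library and autograft replicate 1 was among the lowest.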

How the data were processed

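Per the labels' protocols, TRIzol RNA went into TruSeq libraries. Tools named in the submitters' processing notes are featureCounts 1.5.3, STAR 2.5.2b, Bowtie2 2.3.3.1 and cutadapt. Neither genome build nor strand setting is given in the sources used here. The authors deposited raw counts and FPKM, 1 table of each per run. The 22 sample entries are 11 libraries in 2 runs each, and counts were added per library, since the chi-square per gene was 1.38 to 1.51 between runs of 1 library and 30.1 to 105 between libraries of a group. The row without a gene name, at most 0.000522% of a library's counts, was left out. The deposited FPKM hold 15272 and 15080 genes and no 0, although 4505 and 2216 of the counts behind them are 0, and their distributions are nearly equal between libraries, so they served for levels per length and as an alternative unit. RefSeq symbols (ARS-UI_Ramb_v3.0) matched 18717 of the 26200 symbols.

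Genes were filtered with filterByExpr, scaling was by TMM, and 1 quasi-likelihood model of edgeR 4.0.16 with no block covered the 3 groups. Other tools were DESeq2 1.42.0 and limma 3.58.1 under R 4.3.3. Of these fits, only that of edgeR without a block was tried on simulated data. A gene was called at a Benjamini-Hochberg adjusted p under 0.05 over all 14979 genes. Log2 CPM of single libraries has a prior count of 2, and FPKM tests used log2(FPKM + 1) or log2(FPKM + 0.1) with limma, which understates changes of low genes. The label's animal pairs the native libraries. Deviations from group means correlated between the native libraries of an animal at 0.45 in D6, 0.43 in D5, -0.13 in D4 and -0.18 in D3. Intervals and limits cover counting error or the spread between these libraries only.

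The 9 genes, the 8 lists and the markers were chosen with earlier results of these data known, so their counts are descriptions beside those over all genes. Named were all members and every called gene of the lists up to the 3 smallest p a list and comparison. Beyond that rule, HYAL1, TMEM2, ADAMTS4 and ADAMTS5 were described although edgeR did not call them. The rule for the 3 genes most like a member was set for called members and extended to uncalled ones after their values were seen. Alternatives were DESeq2, other scalings, filters, units, runs and blocks, the 2 groups alone, and fits without single libraries, animal D3 or both libraries that stand apart. No sequences are shown.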

Additional observations from a re-analysis of the deposited data

Results flagged for a closer look

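In 44 groups of 4 native libraries (22 genes in each of 2 groups), 5 held a library far from the others by Dixon's criterion on CPM. Chance gives about 1 in 20 for normally distributed values only. These CPM were not put on a log scale, so the 5 cannot be set against that rate. Whether the same libraries stand out on a log scale was not tested. PRG4 stood at 167 CPM in aortic replicate 1, with the next library at 26.5 CPM, and at 70.1 CPM in pulmonary replicate 1, with the next at 9.37 CPM. Both libraries come from animal D3. CD44 stood at 435 CPM in aortic replicate 2, with the next library at 306 CPM, and MET at 6.10 CPM in the same library, with the next at 3.56 CPM. CHST14 stood at 24.3 CPM in pulmonary replicate 2, below the next library at 29.2 CPM.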

How the results depend on the processing

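Of 24 values (8 genes in 3 comparisons), 14 kept their sign under every alternative run and 10, none of them called, changed it under some. There were 26 alternatives, and 25 for ACAN and HAS3, which are too low for the filter on FPKM. Against pulmonary sinus, the count of the 8 genes called was 1 without animal D3 and 0 to 1 with single libraries left out, and 0 under the other alternatives. The count over all genes (1699) was 3022 with DESeq2, 479 with the 2 groups alone and 452 to 2753 with single libraries left out. For the 87 list genes it was 13 and became 26 with DESeq2, 5 with the 2 groups alone, 27 without animal D3, 20 without both libraries that stand apart and 2 to 27 with single libraries left out. Against aortic sinus, the count over all genes (356) was 1464 with DESeq2, 110 without animal D3 and 25 to 576 with single libraries left out. For the list genes it was 2 and became 14 with DESeq2, 0 without animal D3 and 0 to 4 with single libraries left out. It was 1 with limma-voom, with the random block, with the 2 groups alone, with no filter, with run 2 alone and with FPKM + 1. Between the native sinuses all counts were 0 under every alternative. The cause of these shifts was not tested.

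A fixed replicate block, fitted to the 2 groups alone, gave 0 calls over all genes and 0 of the list genes against pulmonary sinus, and 79 over all genes and 4 of the list genes against aortic sinus. The replicate number is the animal between native sinuses only, and toward the autograft it is just a number. The random animal block, with a correlation of 0.121 within animals, changed none of the calls on the 8 genes. HAS1, HAS3 and ACAN rest on 15 to 260 counts a library, and how much of their spread is counting error was not tested.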
